A study of Schizosaccharomyces pombe with 9 samples.

Results

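Fission yeast (Schizosaccharomyces pombe) expressing the TetR-Mit1 fusion with a modification labelled clr4oe was set directly against fission yeast expressing TetR-Mit1 with the K587A substitution. The comparison uses 2 clr4oe libraries and 3 K587A libraries, 5 of the 8 libraries with counts and of the 9 samples that the series labels. It was made over 4887 tested genes, and these were read through 42 lists of genes with a shared function. The question is which functional groups separate these genotypes most.

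All the strains carry TetR-Mit1, in which the Tet repressor, a bacterial DNA-binding protein, is joined to the chromatin remodeler Mit1. In the first strain (K587A below) the Mit1 part carries K587A, a substitution in its ATPase domain. The second strain (clr4oe below) has an unsubstituted Mit1 part and carries clr4oe in addition. The compared strains therefore differ in both features, whose effects cannot be told apart here. The remaining genotype, TetR-Mit1 with neither feature, has 3 libraries and serves as a reference level. The labels give every genotype as 1 strain, so effects of the strain and of the genotype cannot be told apart either, and how clr4oe was made is not given in the sources used here. Cells were in log phase in the rich medium YEA at 32 °C, and poly(A)-selected RNA was sequenced. A further clr4oe sample in the labels was not analysed here.

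Mit1 is the remodeler subunit of SHREC, a complex that joins histone deacetylation to nucleosome positioning in heterochromatin. Clr4 is the single histone H3 lysine 9 methyltransferase of this yeast, and the methyl mark it deposits is bound by the HP1 proteins Swi6 and Chp2. Heterochromatin covers centromeres, subtelomeres and the silent mating-type region. Most of the genes described below lie in euchromatin and belong to growth and nutrient pathways, whose expression in this yeast follows growth rate, stress and nutrient supply.

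Total counts ran from 10367168 to 15920802 in the K587A libraries, from 13838210 to 14401186 in the clr4oe libraries and from 13086567 to 14181298 in the TetR-Mit1 libraries. The 4 pairs of libraries within the compared groups had Pearson's r of 0.996 to 0.997 across genes (log2 of CPM, a gene's count scaled to a common library total), and the 6 pairs between them had 0.944 to 0.946. Each pair within a group differed by more than sampling noise, with a chi-square per degree of freedom of 3.17 to 6.08, so each library was counted as a replicate. Nothing in the labels says that replicates were separate cultures, so p-values measure the spread between these libraries, which may be technical.

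Levels are given as CPM after TMM scaling, in effect a share of the library, so each difference is relative to the other transcripts. A gene is called when its adjusted p in edgeR's quasi-likelihood test is under 0.05. By that rule 3505 genes differed between clr4oe and K587A (71.7%), 1728 higher in clr4oe (35.4%) and 1777 lower (36.4%). With so many calls, membership in this set says little, and the 2-fold rule is used beside it. A difference of at least 2-fold was found in 381 genes (7.8%), 180 higher (3.68%) and 201 lower (4.11%). In 3869 genes (79.2%) the 2 clr4oe libraries did not overlap the 3 K587A libraries. Most differences were small: 2418 of the called genes differed by less than 1.5-fold, 706 by 1.5-fold to under 2-fold, 341 by 2-fold to under 4-fold, and 40 by 4-fold or more. The median log2 fold change of all tested genes was -0.01, and the median of the absolute values was 0.28.

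The genes in the strain names came first. Expression of clr4 was 55.5, 60.4 and 58.4 CPM in the K587A libraries and 284 and 273 CPM in the clr4oe libraries. All clr4oe values lie far above all K587A values, and clr4 was 4.8-fold higher (log2 2.26 ± 0.05 SE, with an edgeR adjusted p of 1.32e-21). The annotated meu6 gene overlaps clr4, so reads of either cannot be assigned with certainty. Expression of mit1, counted over any copy of the gene, was 532, 521 and 549 CPM in K587A and 344 and 357 CPM in clr4oe (log2 -0.61 ± 0.04 SE, edgeR adjusted p = 4.7e-13). Mit1 overlaps nbr1. The other SHREC subunits, clr1, clr2, clr3 and chp2, had log2 fold changes from -0.42 to 0.23. In ura4, the lowest of the ranked genes by fold change, levels ran from 27.7, 28.3 and 33.6 CPM to 1.03 and 1.22 CPM (log2 -4.71 ± 0.21 SE). TetR-Mit1 was at 2.25 to 3.41 CPM, so K587A stood above it (log2 3.41) and clr4oe below it (-1.30). Because ura4 serves widely as a marker, its counts may hold reads of more than the native gene. In the region of ura4, mug135 and the repair gene rhp7 (overlapping rhp16) were lower in clr4oe, with log2 fold changes of -2.64 ± 0.28 and -2.15 ± 0.10 (SE), but in K587A both lay near their TetR-Mit1 levels (log2 0.25 and -0.21).

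**Figure D1:**
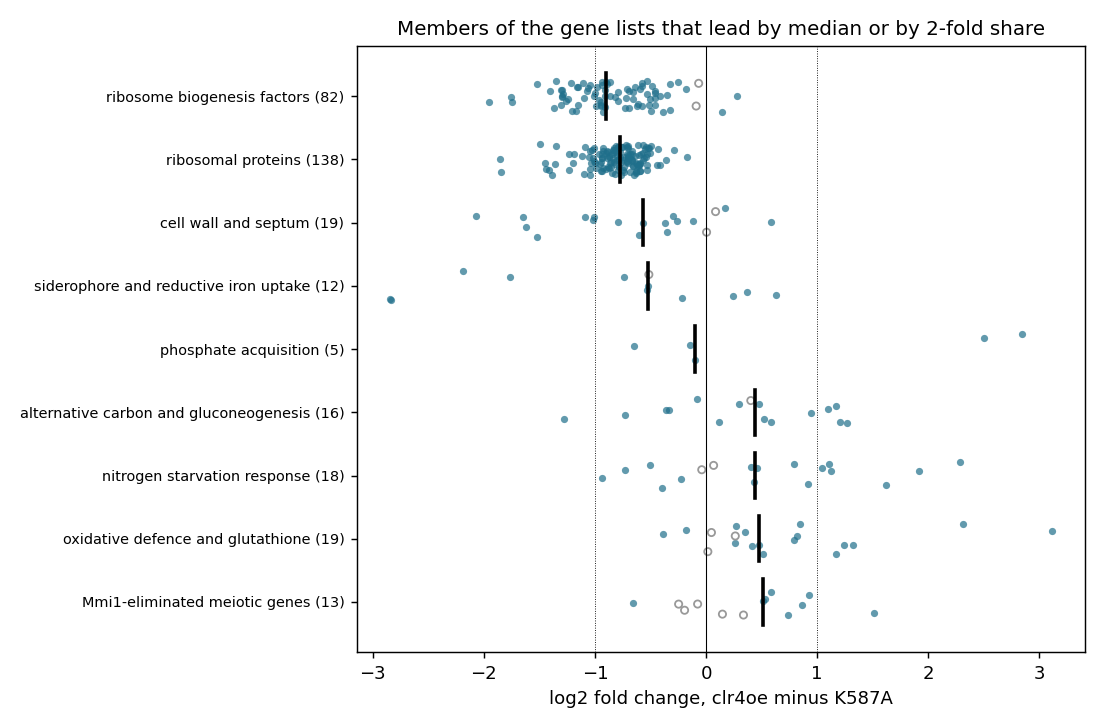
Log2 fold change (clr4oe minus K587A, x axis) of each tested member of the 9 lists that lie farthest from the median of all genes or have the largest share of 2-fold calls. Each filled point is a called gene, open circles are genes that were not called, thick bars are list medians, dotted lines mark 2-fold, and the number of tested members stands after each name; all 138 ribosomal protein genes lie to the left of 0, while the phosphate list splits into 2 genes far to the right and 3 near or below 0.

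Genes of the ribosome formed the most numerous group that separated the genotypes. All 138 tested genes for ribosomal proteins, the structural proteins of the small and large subunits, were lower in clr4oe than in K587A, and 25 of them (18.1%) by at least 2-fold, beside 36.4% and 4.11% of all genes. The libraries of the groups did not overlap in any of the 138 genes, a trait found in 79.2% of all genes. Their median log2 fold change was -0.78, with members from -1.86 to -0.17. The small subunit (55 genes, median -0.74), the large subunit (76 genes, median -0.79) and the stalk (7 genes, median -0.93) moved alike. In a culture measured in bulk, a lower level in every cell and a lower level in some of the cells cannot be told apart.

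Summed over the 138 genes, ribosomal proteins took 18.9%, 18.1% and 18.2% of the counts in the K587A libraries and 11.4% and 11.6% in the clr4oe libraries. The TetR-Mit1 libraries lay between, at 15.5%, 15.6% and 14.8%. Against the same TetR-Mit1 libraries the median log2 fold change of the list was 0.42 for K587A and -0.35 for clr4oe, with the genotypes on opposite sides of TetR-Mit1. The mean of the TetR-Mit1 libraries was between those of the compared groups for 135 of the 138 genes (97.8%), beside 53.9% of all tested genes. These 138 genes had a median absolute log2 fold change of 0.78, beside 0.28 for all genes. A wider gap by itself makes a place in between likelier, so the shares are not directly comparable.

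**Figure D2:**
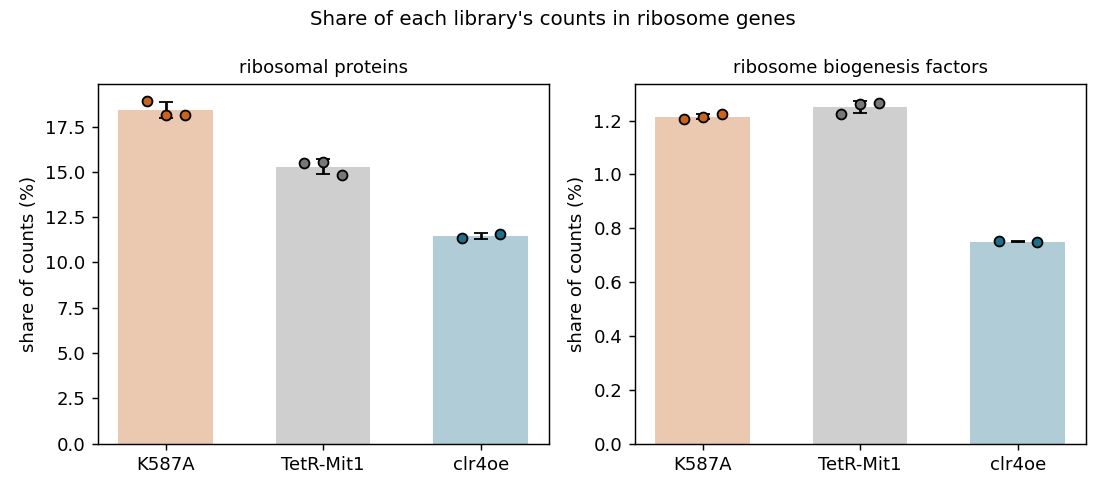
Share of each library's counts (%, y axis from 0) in ribosomal protein genes (left) and ribosome biogenesis factors (right). Points are libraries, bars are group means and error bars are SD (n = 3 for K587A and TetR-Mit1, n = 2 for clr4oe); the ribosomal protein share steps down from K587A through TetR-Mit1 to clr4oe, while the biogenesis share is lower in clr4oe alone.

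Most ribosomal proteins of this yeast are encoded by more than 1 nearly identical gene, and the copies did not move by the same amount. Of 52 proteins with more than 1 copy tested, 16 had some but not all copies lower by at least 2-fold, and 3 had all. The remaining proteins had no copy lower by that much. Most gaps between copies were small, with a median of 0.22 on the log2 scale, whereas the 4 pairs below had gaps of 0.80 to 1.15. The largest gap was in the large-subunit protein eL30: rpl3002 was at 121, 125 and 127 CPM in K587A and at 31.0 and 37.8 CPM in clr4oe (log2 -1.86 ± 0.07 SE), while its copy rpl3001 fell by 0.71. Rps1401, for the small-subunit protein uS11, was at 188, 178 and 185 CPM in K587A and at 52.2 and 49.9 CPM in clr4oe (log2 -1.85 ± 0.06 SE), and its copy rps1402 fell by 1.04. Rpl1002 and rpl3402 fell by 1.5 and 1.45, and their copies rpl1001 and rpl3401 by 0.51 and 0.43. In each of these 4 pairs the clr4oe libraries were the lower ones for both copies. How reads shared by copies were counted is not given in the sources used here, and rps1401 overlaps aar2, so the gaps between copies are uncertain.

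Ribosome biogenesis factors, which process ribosomal RNA and assemble the subunits in the nucleolus, were lower too. Of 82 tested genes, 78 were lower in clr4oe (95.1%, beside 36.4% of all genes) and 2 higher. Falls of at least 2-fold numbered 27 (32.9%, beside 4.11%). The median log2 fold change was -0.90. The RNA helicase gene dbp3 was at 245, 251 and 250.2 CPM in K587A and at 66.3 and 61.7 CPM in clr4oe (log2 -1.96 ± 0.05 SE, edgeR adjusted p = 3.96e-21). The 60S assembly genes rlp7 and nip7 fell by 1.76 and 1.75, and gar2, the nucleolin of this yeast, went from 773, 707 and 752 CPM to 263 and 257 CPM (log2 -1.52 ± 0.04 SE). Fib1, nop56 and nop58, the core proteins of the box C/D RNPs that guide ribosomal RNA methylation, fell by less, with log2 fold changes of -0.49, -0.35 and -0.57. The exceptions, rrp17 and the exosome gene rrp40, were higher by 0.15 and 0.28 on the log2 scale; rrp40 overlaps dak1. The call on rrp17 was lost under upper-quartile scaling and without K587A replicate 1, K587A replicate 2 or clr4oe replicate 2, at log2 0.08 to 0.15. Dbp3 overlaps npg1 and rlp7 overlaps rad9.

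Against TetR-Mit1 this list did not stand as the ribosomal proteins did. Its median log2 fold change was 0.05 for K587A and -0.75 for clr4oe, and its share of the counts was 1.20%, 1.21% and 1.23% in K587A, 1.23%, 1.26% and 1.27% in TetR-Mit1, and 0.752% and 0.749% in clr4oe. The clr4oe libraries thus stood apart from both other genotypes. The list had first been drawn by symbol pattern, and 12 genes whose annotated product belongs elsewhere were then taken out; with them in, the median relative to all genes was -0.75 and the count of 2-fold members stayed at 27.

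Factors that act on the finished ribosome moved less. Of 23 translation initiation factors, 22 were lower in clr4oe (95.7%, beside 36.4% of all genes). Their median log2 fold change was -0.36, and tif5 (eIF5) was lowest at -0.94. All 7 elongation factor genes were lower, from -0.75 for eft202 (eEF2) to -0.11 for tef101 (eEF1A), with a median of -0.33. The calls on tef101 and tef102 were lost without clr4oe replicate 2 (log2 -0.06 and -0.10). The medians of both lists lay below the -0.01 of all genes, and well above those of the ribosomal protein and biogenesis lists.

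Chaperones are proteins that fold others, and the Hsp70 and Hsp90 machines fold many newly made ones. Of 21 genes on this list, 16 were lower in clr4oe (76.2%, beside 36.4% of all genes) and 4 higher. The fall was at least 2-fold in 5 (23.8%, beside 4.11%). The list and the genes named from it were described after their values were seen. The cytosolic Hsp70 gene ssa2, which overlaps ppe1, was at 9975, 10031 and 9998 CPM in K587A and at 2725 and 2655 CPM in clr4oe (log2 -1.89 ± 0.04 SE, edgeR adjusted p = 2.21e-23). Hsp90 was at 6031, 6155 and 6198 CPM in K587A and at 1903 and 1853 CPM in clr4oe (log2 -1.71 ± 0.04 SE). The K587A libraries are high and the clr4oe libraries low, with the TetR-Mit1 libraries between them at 2946 to 3054 CPM for hsp90. The Hsp90 co-chaperone genes sti1, aha1 and wos2 fell by 1.18, 1.13 and 1.12. The stress-inducible disaggregase hsp104 and the small heat shock gene hsp16 were slightly higher in clr4oe (log2 0.13 and 0.19), as were ssa1 (0.17) and hsf1 (0.28), the heat shock transcription factor. The call on hsp104 was lost under upper-quartile scaling, without K587A replicate 3 and without clr4oe replicate 1, at log2 0.07, 0.08 and 0.11. The median log2 fold change of the list was -0.44 between the compared groups, and against the shared TetR-Mit1 libraries it was 0.39 for K587A and -0.18 for clr4oe.

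Genes for cell separation also fell. Fission yeast divides by building a septum and then digesting it with glucanases. Of 19 tested cell wall and septum genes, 15 were lower in clr4oe (78.9%, beside 36.4% of all genes) and 2 higher. In 7 the fall was at least 2-fold (36.8%, beside 4.11%), and the median log2 fold change was -0.57. Without K587A replicate 3 the count of lower genes was 14. Under some alternatives, such as without K587A replicate 2, the count of 2-fold falls was 6. The median was -0.45 without clr4oe replicate 1 and -0.55 without clr4oe replicate 2. Eng1, the endoglucanase that dissolves the primary septum, was at 170.4, 159 and 161 CPM in K587A and at 39.7 and 38.4 CPM in clr4oe (log2 -2.07 ± 0.06 SE, edgeR adjusted p = 1.94e-19). Agn1, the alpha-glucanase that opens the cell wall around it, was at 204, 208 and 207 CPM in K587A and at 74.3 and 69.2 CPM in clr4oe (log2 -1.52 ± 0.05 SE). Agn1 overlaps mug5 and SPAC14C4.10c. The cell-surface genes adg1 and adg2 fell by 1.65 and 1.62, and adg3 by 1.02. Mid2, which organizes the septin ring, fell by 1.01. The synthases that build the wall showed log2 fold changes of -0.35 (bgs4), -0.12 (ags1) and 0.09 (bgs1, edgeR adjusted p = 0.0578).

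The list of cell cycle regulators was described after its values were seen. Of 22 genes, 9 were lower in clr4oe (40.9%) and 7 higher (31.8%), near the 36.4% and 35.4% of all genes, and 5 were lower by at least 2-fold (22.7%, beside 4.11%). Those 5 were mik1, a kinase that restrains mitosis, cdc22, the large subunit of ribonucleotide reductase, slp1, an activator of the anaphase-promoting complex, and the replication licensing genes cdc18 and cdt1. Mik1, which overlaps ssb1, was at 54.4, 55.4 and 58.0 CPM in K587A and at 14.0 and 14.6 CPM in clr4oe (log2 -1.96 ± 0.09 SE). Cdc22 was at 834, 855 and 867 CPM in K587A and at 269.9 and 279 CPM in clr4oe (log2 -1.63 ± 0.04 SE). Slp1, cdc18 and cdt1 fell by 1.44, 1.35 and 1.25. The TetR-Mit1 means of all 5 lay between those of the compared groups. The cyclin genes cdc13 and cig2 differed little (log2 -0.17 and -0.12), and the small reductase subunit suc22 was higher (0.50). The cell cycle distribution of the cultures is not given in the sources used here.

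**Figure D3:**
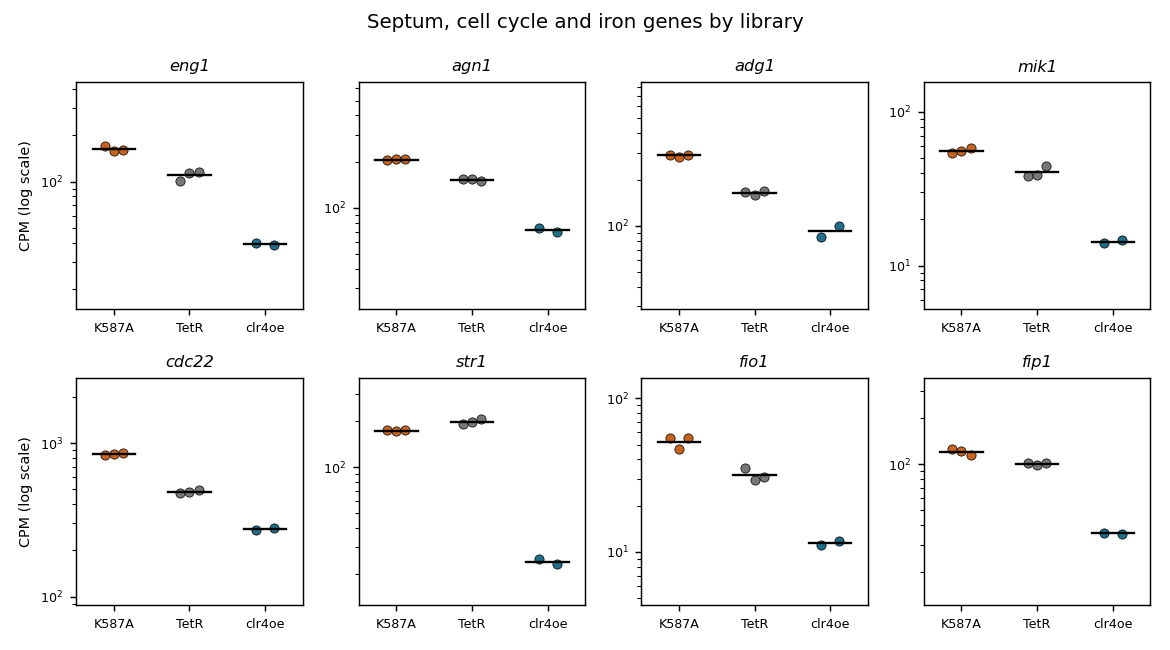
Expression (CPM, log y axis) of 8 genes that were lower in clr4oe, from the septum, cell cycle and iron lists, in each K587A, TetR-Mit1 (axis label TetR) and clr4oe library. Points are libraries (n = 3, 3 and 2) and horizontal bars are group means; in each panel the clr4oe points are the lowest, for example 39.7 and 38.4 CPM for eng1 and 25.2 and 23.4 CPM for str1.

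Iron acquisition was lower in clr4oe at its uptake steps. In this yeast siderophore transporters and a reductive system, a ferroxidase with its permease, bring in iron, and the repressor Fep1 shuts them off when iron is ample. Of 12 genes, 8 were lower (66.7%, beside 36.4% of all genes) and 3 higher (25%, beside 35.4%). A fall of at least 2-fold was found in 4 (33.3%, beside 4.11%), and the median log2 fold change was -0.53. The siderophore transporter gene str1 was at 174, 172 and 173 CPM in K587A and at 25.2 and 23.4 CPM in clr4oe (log2 -2.83 ± 0.06 SE, edgeR adjusted p = 8.39e-23). Its relative str3 was low in every library, at 3.90, 4.20 and 2.24 CPM in K587A and at 0.551 and 0.429 CPM, or 8 and 6 counts, in clr4oe (log2 -2.84 ± 0.41 SE). The ferroxidase gene fio1 was at 54.8, 46.8 and 55.1 CPM in K587A and at 11.1 and 11.8 CPM in clr4oe (log2 -2.18 ± 0.11 SE), and the permease gene fip1 fell by 1.76. The reductase gene frp1 fell by 0.74. The siderophore synthesis genes sib1 and sib2 were higher (log2 0.25 and 0.63), as was fep1 (0.37). Str1 lay near its TetR-Mit1 level in K587A (log2 -0.19) and far below it in clr4oe (-3.03), whereas fio1 was above TetR-Mit1 in K587A (0.71) and below it in clr4oe (-1.47).

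Phosphate acquisition had the largest share of 2-fold differences among the lists with at least 4 tested genes, 2 of 5 genes. Their share was 40%, beside 7.8% of all genes, and both were higher in clr4oe. Under upper-quartile scaling the share of ribosome biogenesis factors was larger, at 43.9%. Pho1, the secreted acid phosphatase that is induced when phosphate is short, was at 640.3, 629.9 and 658 CPM in K587A and at 3659 and 3636 CPM in clr4oe. That is 5.68-fold higher (log2 2.51 ± 0.04 SE, edgeR adjusted p = 4.4e-26). Tgp1, a glycerophosphodiester transporter, was at 23.5, 24.1 and 27.6 CPM in K587A and at 186 and 171 CPM in clr4oe (log2 2.84 ± 0.07 SE); it overlaps SPBC1271.10c. Both genes stood between these levels in TetR-Mit1, where pho1 was at 1418 to 1434 CPM. When phosphate is ample, pho1 and tgp1 are known to be held down by transcription of upstream long noncoding RNAs, not analysed here. The phosphate transporter gene pho84, another member of the same regulon, was slightly lower in clr4oe (log2 -0.10 ± 0.04 SE, edgeR adjusted p = 0.022), and that call was lost without K587A replicate 3 and without clr4oe replicate 2. The thiamine-repressible phosphatase gene pho4 fell by 0.65. The transcription factor gene pho7, which drives the regulon, had a log2 fold change of -0.14 (edgeR adjusted p = 0.0323), and 6 of the alternatives ended that call.

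Genes next to tgp1 on chromosome II rose with it, a pattern noted after the values were seen. SPBC1271.08c, an uncharacterized gene, was at 20.2, 18.5 and 16.9 CPM in K587A and at 245 and 251 CPM in clr4oe, 13.2-fold higher (log2 3.73 ± 0.07 SE). The N-acetyltransferase gene SPBC1271.07c was at 13.8, 14.2 and 13.7 CPM in K587A and at 103 and 101 CPM in clr4oe (log2 2.88 ± 0.07 SE), and SPBC1271.05c rose by 1.64. On the other side SPBC1271.10c was lower (log2 -0.61 ± 0.06 SE). The genes that rose with tgp1 all lie on the same side of it.

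Genes of oxidative defence were mostly higher in clr4oe. Glutathione transferases, peroxiredoxin and catalase detoxify peroxides and electrophiles, and the transcription factors Pap1 and Atf1 control them. Of 19 genes, 14 were higher (73.7%, beside 35.4% of all genes) and 2 lower (10.5%, beside 36.4%). Rises of at least 2-fold numbered 5 (26.3%, beside 3.68%), and the median log2 fold change was 0.47. The count of lower genes was 1 without K587A replicate 2 or 3 or without either clr4oe library. The glutathione transferase gene gst2 was at 83.0, 81.1 and 80.2 CPM in K587A and at 687 and 728 CPM in clr4oe, 8.67-fold higher (log2 3.12 ± 0.04 SE, edgeR adjusted p = 4.36e-26). The quinone reductase gene obr1 was at 310.0, 289 and 288 CPM in K587A and at 1466 and 1473 CPM in clr4oe (log2 2.31 ± 0.04 SE). Both were already high in TetR-Mit1, at 476 to 501 CPM for gst2 and at 1095 to 1147 CPM for obr1, so that K587A is the genotype that stands apart. The same held for the sulfiredoxin gene srx1 (log2 1.32 between the compared groups, -1.58 for K587A and -0.26 for clr4oe against TetR-Mit1; it overlaps mph1) and for the catalase gene ctt1 (1.17, -1.14 and 0.03). The peroxiredoxin gene tpx1 differed from these: it was at 1258, 1099 and 1137 CPM in K587A, at 1209.5 to 1226 CPM in TetR-Mit1 and at 2723 and 2798 CPM in clr4oe (log2 1.24 ± 0.04 SE). Pap1, gst3 and sod1 were higher by 0.82, 0.84 and 0.47, and the thioredoxin gene trx1 fell by 0.38.

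The environmental stress list of the Sty1 kinase and the Atf1 factor shares some of these genes. Of its 20 members 16 were higher in clr4oe (80%, beside 35.4% of all genes) and 4 lower (20%, beside 36.4%). The rise was at least 2-fold in 5 (25%, beside 3.68%). These were ctt1, srx1, the metallothionein gene zym1 (log2 1.54), the pyridoxal reductase gene plr1 (1.37) and tms1 (1.04). The median of the list was 0.40. Without clr4oe replicate 1 the count of lower genes was 2.

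Nitrogen starvation genes were more often higher than lower in clr4oe, with some large rises. Without a good nitrogen source this yeast induces transporters and proteases and enters the sexual pathway. Of 18 genes 11 were higher in clr4oe (61.1%, beside 35.4% of all genes) and 5 lower (27.8%, beside 36.4%). A rise of at least 2-fold was found in 6 (33.3%, beside 3.68%), and the median log2 fold change was 0.44. The amino acid transporter gene isp5 was at 17.3, 16.7 and 18.0 CPM in K587A and at 85.2 and 83.2 CPM in clr4oe (log2 2.29 ± 0.08 SE, edgeR adjusted p = 8.51e-19). The ammonium transporter gene amt1 was at 76.1, 62.3 and 69.7 CPM in K587A and at 266 and 257 CPM in clr4oe (log2 1.91 ± 0.06 SE). The vacuolar protease gene isp6 rose by 1.62, and isp7, put1 (proline dehydrogenase, overlapping SPCC70.04c) and mei2, an RNA-binding regulator of meiosis, by 1.13, 1.11 and 1.04. The permease genes per1 and isp4 fell by 0.94 and 0.73. For isp5, amt1, isp6 and isp7 K587A lay below TetR-Mit1 and clr4oe above it, whereas mei2 was lower than TetR-Mit1 in both, by 2.0 in K587A and 0.96 in clr4oe.

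Genes for other carbon sources were also more often higher than lower. Of 16 genes 10 were higher in clr4oe (62.5%, beside 35.4% of all genes) and 5 lower (31.3%, beside 36.4%). The median log2 fold change was 0.44, and 5 differed by at least 2-fold (31.3%, beside 7.8%). The invertase gene inv1 was at 119, 125 and 99.4 CPM in K587A and at 289 and 265 CPM in clr4oe (log2 1.27 ± 0.06 SE). The dihydroxyacetone kinase genes dak2 and dak1 rose by 1.20 and 1.10 and the glycerol dehydrogenase gene gld1 by 1.17; dak2 overlaps SPAC977.17. The galactokinase gene gal1 was at 61.1, 60.6 and 57.9 CPM in K587A and at 25 and 24.4 CPM in clr4oe (log2 -1.28 ± 0.08 SE), and its neighbours gal10 and gal7 fell by 0.73 and 0.36. These 3 genes lie within 100 kb of an end of chromosome II. Dak2 was below TetR-Mit1 in both genotypes, by 2.56 in K587A and 1.36 in clr4oe.

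**Figure D4:**
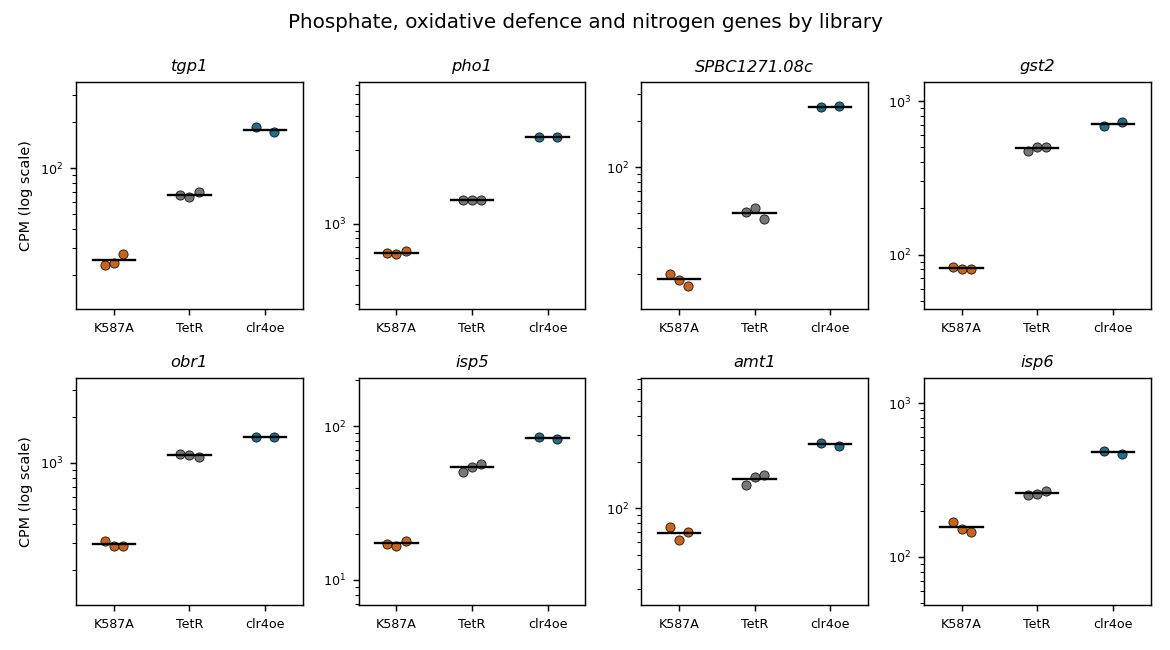
Expression (CPM, log y axis) of 8 genes that were higher in clr4oe, from the phosphate, tgp1-neighbour, oxidative defence and nitrogen groups, in each K587A, TetR-Mit1 (axis label TetR) and clr4oe library. Points are libraries (n = 3, 3 and 2) and horizontal bars are group means; clr4oe is highest in each panel, by a wide margin for pho1 (3659 and 3636 CPM) and by less for obr1, where TetR-Mit1 is at 1095 to 1147 CPM.

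Sterol genes, a group singled out after the values were seen, rose mostly in clr4oe. Ergosterol is the sterol of fungal membranes, and its synthesis needs oxygen and is controlled by the membrane-bound factor Sre1. Of 18 ergosterol genes 16 were higher (88.9%, beside 35.4% of all genes), 3 of them by at least 2-fold (16.7%, beside 3.68%). Their median log2 fold change was 0.32. Sre1 was at 137, 145 and 149 CPM in K587A and at 601 and 591 CPM in clr4oe (log2 2.06 ± 0.04 SE, edgeR adjusted p = 4.09e-23). The desaturase gene erg31, the squalene monooxygenase gene erg1 and the methylsterol oxidase gene erg25 rose by 1.44, 1.26 and 1.0. Hem13, the oxygen-dependent coproporphyrinogen oxidase of heme synthesis, went from 328, 343 and 332 CPM to 1705 and 1729.6 CPM (log2 2.36 ± 0.04 SE); it overlaps SPAC222.17. For sre1 and hem13 the TetR-Mit1 levels were close to those of K587A (log2 -0.25 and 0.21 for K587A against TetR-Mit1, 1.81 and 2.57 for clr4oe). The regulators scp1, which activates Sre1, and ofd1, which promotes its breakdown, had log2 fold changes of -0.14 and 0.06 (edgeR adjusted p = 0.0094 and 0.2).

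Meiotic transcripts that Mmi1 marks for destruction in growing cells had a median log2 fold change of 0.51, on low levels. Without K587A replicate 3 the median was 0.34. Of 13 genes 7 were higher (53.8%, beside 35.4% of all genes), 1 was lower (crs1, -0.66) and 5 did not pass the threshold, among them mei4 and ssm4 (log2 0.34 and -0.19). Without clr4oe replicate 2 the count of higher genes was 4, and without K587A replicate 1 or clr4oe replicate 1 the call on crs1 was lost. Mei3, which starts meiosis by inhibiting the kinase Pat1, was at 1.3, 0.328 and 0.713 CPM in K587A and at 1.93 and 2.58 CPM in clr4oe, that is 5 to 19 counts and 28 and 36 counts (log2 1.51 ± 0.48 SE, edgeR adjusted p = 0.00735). Without K587A replicate 2 or without clr4oe replicate 2 the call on mei3 was lost, at log2 1.08 and 1.31. Rec10, a protein of the meiotic chromosome axis, was at 9.79, 11.8 and 9.27 CPM in K587A and at 20.0 and 19.5 CPM in clr4oe (log2 0.93 ± 0.13 SE; it overlaps zip1). Mug9 and num1, the dynein anchor also known as mcp5, were higher by 0.86 and 0.73.

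Single genes outside these groups completed the ranked differences. Among the 20 genes ranked by size, 7 lie within 100 kb of an end of chromosome I or II, 3 of the rises (tlh2, aes1 and pho1) and 4 of the falls. The subtelomeric RecQ-type helicase gene tlh2 had the largest rise among the ranked genes, from 1.3, 0.984 and 1.43 CPM to 19.2 and 20.4 CPM (log2 4.02 ± 0.20 SE); near-identical relatives of tlh2 make its counts uncertain. Aes1 rose from 65.7, 68.6 and 69.3 CPM to 442 and 459 CPM (log2 2.73 ± 0.04 SE). Near the ends falls were also found: pan5 (2-dehydropantoate reductase, log2 -2.87 ± 0.08 SE), SPBPB2B2.05 (-2.67 ± 0.14), the permease gene nrg1 (-2.33 ± 0.09) and gdt1 (-2.32 ± 0.08). Pan5 was at 94.6, 85.6 and 95.1 CPM in K587A and at 11.8 and 13.2 CPM in clr4oe. Of the 73 tested genes within 100 kb of these ends, 27 differed by at least 2-fold (37.0%, beside 7.8% of all genes), 7 higher and 20 lower. Elsewhere, ecl1, a small regulator of chronological lifespan, rose from 18.5, 14.6 and 18.0 CPM to 110.5 and 127 CPM (log2 2.81 ± 0.09 SE). Ecl1 lies within 100 kb of an end of chromosome III, whose ends were not counted above. The adducin-like gene mug14 rose from 10.5, 8.0 and 10.5 CPM to 59.9 and 50.2 CPM (2.53 ± 0.11). Mug14 was at 46.3 to 52.0 CPM in TetR-Mit1.

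**Figure D5:**
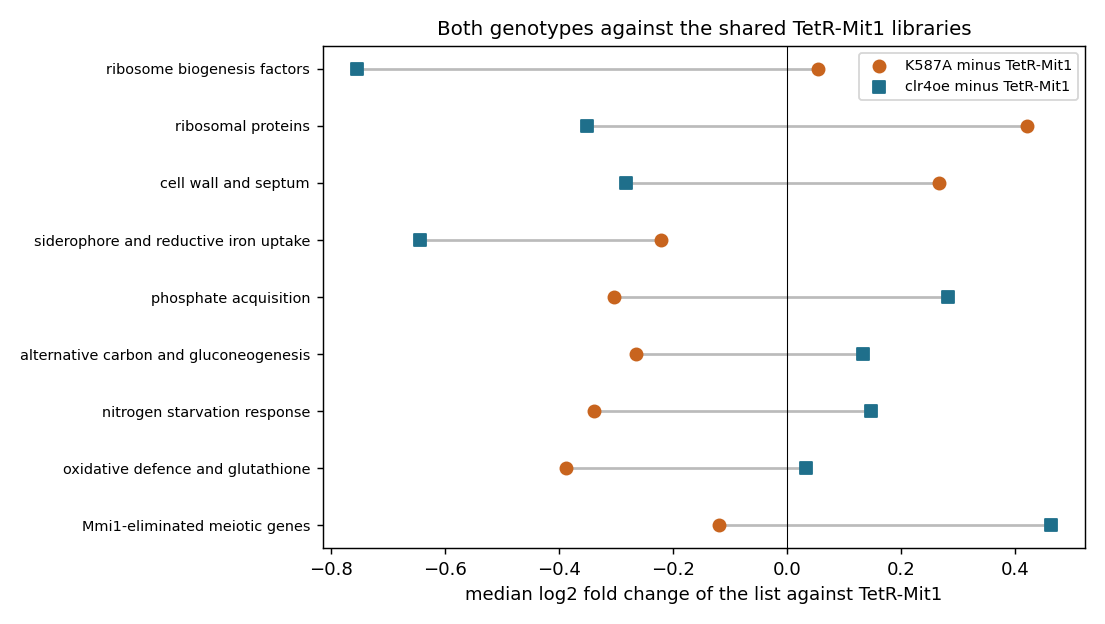
Median log2 fold change (x axis) of each of the same 9 lists against the TetR-Mit1 libraries, for K587A (circles) and clr4oe (squares). Both genotypes share the 3 TetR-Mit1 libraries, so the points of a row are not independent; ribosomal proteins stand at 0.42 and -0.35, and ribosome biogenesis factors at 0.05 and -0.75.

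Where TetR-Mit1 lay relative to the compared groups differed between lists. Over all 381 genes with a difference of at least 2-fold, the TetR-Mit1 mean lay between the means of the compared groups in 310 (81.4%), above both in 54 and below both in 17. For genes higher in clr4oe the share in between was 85% (153 of 180) and for genes lower in clr4oe 78.1% (157 of 201). Counted over all tested genes, with or without a call, the share in between was 53.9%. Genes chosen for a wide gap are likelier to have TetR-Mit1 in between, so these shares are not directly comparable. Over all tested members of a list it was 63.4% for ribosome biogenesis factors, 78.9% for cell wall and septum genes, 76.2% for chaperones and 50% each for the iron and nitrogen lists.

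Further lists had positive medians. In the tricarboxylic acid cycle 13 of 16 genes were higher and 2 lower (median log2 fold change 0.23). The proteasome had 22 of 32 higher and 1 lower (median 0.22), and autophagy 17 of 28 higher and 4 lower (median 0.39). Glycolysis with fermentation had 11 of 17 higher and 2 lower (median 0.40). The shares of higher genes in these 4 lists were 81.25%, 68.75%, 60.7% and 64.7%. Of all genes, 35.4% were higher and 36.4% lower. Glycolysis and fermentation genes together took 8.49%, 8.41% and 8.42% of the counts in the K587A libraries and 11.2% and 10.9% in the clr4oe libraries, and 6.73% to 6.83% in TetR-Mit1. Within these lists the alcohol dehydrogenase gene adh4 stood out at 1.48. Amino acid synthesis genes were higher in 27 of 44 cases (61.4%) and lower in 9 (20.5%), with a median of 0.34. The largest rise was in the argininosuccinate synthase gene arg12, at 357, 364 and 365 CPM in K587A and at 1433 and 1419 CPM in clr4oe (log2 1.98 ± 0.04 SE). In the pyrimidine list, which has 10 genes, the uracil-regulated genes urg2 and urg1 rose by 1.51 and 1.11 and the orotate phosphoribosyltransferase gene ura5 fell by 0.92, beside the fall of ura4. The RNA interference machinery (9 genes, log2 fold changes from -0.23 to 0.40) and the core histones (10 genes, from -0.41 to 0.21) stayed within a narrow range. Of the 2-fold differences, 255 lay in genes outside the 42 lists.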

How the data were processed

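Polyadenylated RNA was sequenced from log-phase cultures. The deposited values are whole-number read counts per gene that are not normalized, and the suffix ReadsPerGene.out in the file headers is that of STAR's gene counts. The submitters' processing notes name STAR, SAMtools, DESeq2 and the build ASM294v2 without versions or roles, and the strand setting and the handling of shared reads are not given in the sources used here. Each of the 8 count columns was matched to a sample by its library letter and to a group by the sample's title. Symbols, overlaps, neighbours and nearness to chromosome ends came from the RefSeq annotation of ASM294v3, another build, so no coordinates are printed; 4906 of 4915 identifiers matched and 9 did not. Counts of overlapping genes are uncertain, and besides the overlaps given beside values this concerns aha1, bgs1, cig2, clr1, crs1, fib1, fta3, gal10, gst3, hsf1, mei4, mid2, mlg1, ofd1, rpl3001, SPBC428.15, tef101, tif5, tms1 and trx1.

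edgeR 4.0.16 in R 4.3.3 was used with filterByExpr (4887 genes kept, 28 removed), TMM scaling and 1 quasi-likelihood fit of all 8 libraries with genotype as the only factor, which share 1 estimate of the spread (common biological coefficient of variation 3.58%). P-values were adjusted by Benjamini-Hochberg over all tested genes, and the threshold was 0.05. The standard error is the absolute log2 fold change divided by the square root of F. A count of 3, taken as the detection floor, equals 0.188 to 0.289 CPM before TMM scaling, for counting error only. The fit was tested on simulated data in which few genes changed, equally often up and down. Far more genes differed in the real libraries, so that test does not check the scaling for them. The design, made for 9 libraries, was applied to 8.

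The comparison, the 42 lists and the tests were chosen with earlier results of these data known, so no list is independent evidence. From lists matched by symbol pattern, 27 genes whose annotated product belongs elsewhere were removed after values had been seen. Lists are described by counts and medians beside those of all genes, with no test of their own. Named by rule were up to 10 rises and 10 falls, the largest among called genes with no overlap between the groups and a mean of at least 5 CPM. Also named were up to 4 members of each list that ranked among the 6 farthest from the median of all genes or the 6 with the largest 2-fold share, given at least 4 tested members, and mit1, clr4 and ura4. All other genes were named after their values were seen. Some results are not reported here. As alternatives, scaling was done by upper quartile or by median of ratios, DESeq2 1.42.0 replaced edgeR, and the filter, the fold requirement, a replicate block and the libraries included were varied, also leaving out each library.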

Additional observations from a re-analysis of the deposited data

How the results depend on the processing

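The 3505 called genes became 3163 to 3600 under the other scalings, tests, filters and sample sets, and the 381 genes with at least a 2-fold difference became 367 to 397. Requiring 1.5-fold gave 1087 genes, and edgeR's glmTreat test against 1.5-fold gave 771. Under upper-quartile scaling 41.5% of the called genes were higher in clr4oe, against 49.3% with TMM, and the median of all genes was -0.0767. Deviations from the group means correlated at -0.135 and -0.0786 across genes for libraries of the same replicate number. The deviations of the 2 clr4oe libraries mirror each other by construction, so these values cannot decide whether the numbers pair libraries. With the replicate block, 3458 genes were called (3410 shared with the fit without it) and 375 differed by at least 2-fold (370 shared), and the median of the nitrogen list, relative to all genes, was 0.475. Leaving out 1 library gave 3163 to 3404 calls and 369 to 384 at 2-fold. It moved the same relative median to between -0.578 and -0.442 for cell wall and septum, -0.605 and -0.488 for iron uptake, and 0.424 and 0.473 for nitrogen, and 0.352 and 0.572 for the Mmi1 list, and the 2-fold count of the Mmi1 list from 1 to between 0 and 1. That list also had 0 with at least 10 counts in every library; its other called genes are counted in the text. With the list before removal by annotated product, an alternative chosen after seeing the data, ribosome biogenesis factors had a relative median of -0.749. Of 110 list medians under alternatives 103 moved by less than the spread, and 108 of 110 list counts stayed within 1.5 times. Of 634 gene values 626 kept direction and call, while pho7 lost its call in 6 and mei3 in 2, both with the same sign; the cause was not tested. Depth limits str3, mei3 and mug9, which have few counts. It also limits ura4 and mug135 in the clr4oe libraries (15 and 17 counts, and 19 and 18 counts). The same holds for tlh2 in the K587A libraries (19, 15 and 14 counts).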

Other observations

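The genes beside clr4 on chromosome II were looked up once its values were known. Arg12 (log2 1.98 ± 0.04 SE), meu6 (2.21 ± 0.07), SPBC428.10 (1.07 ± 0.05), met17 (1.07 ± 0.04), mob1 (0.71 ± 0.08) and mlg1 (0.41 ± 0.05) were higher in clr4oe than in K587A. Between arg12 and meu6, rxt2 had a log2 fold change of -0.09 ± 0.08 (edgeR adjusted p = 0.299), and farther out pho4 (-0.65 ± 0.05) and SPBC428.15 (-0.52 ± 0.08) were lower. Against the shared TetR-Mit1 libraries, arg12 was lower in K587A (-0.74) and higher in clr4oe (1.24), and met17 was higher in both (0.94 and 2.02). Meu6 overlaps clr4.

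Some lists with a median near 0 held a few large differences. The DIPSY-family adhesin gene pfl3 was at 111, 116 and 116 CPM in K587A and at 35.1 and 29.1 CPM in clr4oe, and the kinetochore genes cnp3 and fta3 fell by 1.08 and 1.12. The glucose transporter gene ght1 was at 44.5, 42.1 and 38.5 CPM in K587A and at 116 and 114 CPM in clr4oe. Both Tf2 retrotransposons in the table were higher in clr4oe, Tf2-2 by log2 2.05 ± 0.20 (SE) and Tf2-7 by 1.25 ± 0.18, at 2.45 to 6.63 CPM in K587A; Tf2 copies are near identical, so their counts are uncertain. Of 15 tested genes of the wtf family, 14 had their highest mean in TetR-Mit1, with medians of -0.57 for K587A and -0.64 for clr4oe against those libraries.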
